A study of Mus musculus with 4 samples.

Results

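Sp100, Sp110 and Sp140 are 3 neighbouring mouse genes on chromosome 1 that encode related nuclear proteins. They were chosen by name after earlier results on the same deposited lists had shown a high-scoring PPAR-alpha summit at Sp140, and they are 3 of the 21775 placed protein-coding genes of the mouse gene table. The values below that rest on those lists are therefore a description, with no test. Chromatin immunoprecipitation followed by sequencing (ChIP-seq) recovers DNA bound by a protein with an antibody and reads it. Thymus from p53 AD/AD animals aged 4 weeks gave 2 p53 libraries and 1 PPAR-alpha library. All animals carried the AD change in the germline on both copies of the p53 gene, which yields p53 dimers, so no group with ordinary p53 is compared. Reads were 50 nt long for p53 and 75 nt long for PPAR-alpha, and this difference and that of the antibodies cannot be told apart. The labels do not say that the p53 libraries came from separate mice, and their differences may be technical. An input library of the same genotype is not analysed here.

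Proteins of the Sp100 family share a domain at their start that lets them join each other, and many of their forms carry a SAND domain that contacts DNA. Sp100, induced by interferon, is a lasting constituent of PML nuclear bodies, the dots in the nucleus that also hold PML and Daxx. Sp110, also called Ipr1 in the mouse, was proposed to affect how macrophages resist mycobacteria, and Sp140 limits interferon responses in immune cells. In house mice part of Sp100 is also repeated in a long array on chromosome 1, known as Sp100-rs, whose number of copies differs between mice. Csprs is a gene of that array.

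The starts of these genes are shown first because some are nearly the same sequence. RefSeq promoters on GRCm38.p6 matched all 3 members, and 250 bases before a start are printed, 5′ to 3′ on the strand of the gene. Capitals mark a base at which aligned promoters differ. Sp140 lies on the plus strand with its start in the promoter entries at 85600703. The annotated gene begins further upstream, at 85587491. The start of C130026I21Rik, an unnamed protein-coding gene on the minus strand, lies at 85270566, and that of A530032D15Rik, likewise on the minus strand, at 85109853. The 3 windows were chr1:85600453-85600702, chr1:85270567-85270816 and chr1:85109854-85110103.
Sp140: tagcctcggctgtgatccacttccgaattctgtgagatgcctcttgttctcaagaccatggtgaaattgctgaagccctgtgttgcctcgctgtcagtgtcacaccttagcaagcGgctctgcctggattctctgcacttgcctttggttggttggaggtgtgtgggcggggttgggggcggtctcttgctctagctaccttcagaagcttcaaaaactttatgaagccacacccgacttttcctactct
C130026I21Rik: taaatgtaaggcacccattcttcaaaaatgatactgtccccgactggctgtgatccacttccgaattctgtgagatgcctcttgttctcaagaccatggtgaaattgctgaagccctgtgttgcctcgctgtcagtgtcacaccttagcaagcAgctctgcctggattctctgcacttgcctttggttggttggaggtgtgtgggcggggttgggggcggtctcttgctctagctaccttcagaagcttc
A530032D15Rik: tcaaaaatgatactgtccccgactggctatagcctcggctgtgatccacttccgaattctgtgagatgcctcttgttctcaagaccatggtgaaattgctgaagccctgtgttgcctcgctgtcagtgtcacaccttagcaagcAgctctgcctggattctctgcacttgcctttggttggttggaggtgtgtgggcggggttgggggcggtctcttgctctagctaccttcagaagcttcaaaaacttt
Over the 300 bases of each table entry, Sp140 and C130026I21Rik aligned over 255 bases, of which 254 were the same. Sp140 and A530032D15Rik aligned over 271 bases, of which 270 were the same. The single difference in each case was G116A, with the Sp140 base first and positions counted from 1 at the first base printed for Sp140. The longest exact run was 146 bases for the first pair and 155 for the second, longer than the reads of 50 or 75 nt. A read from such a run, taken alone, maps equally well to more than 1 gene, and the treatment of such reads by the authors is not given in the sources used here.

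Sp100 has the same kind of partner in the predicted gene Gm7609, which lies inside the longer predicted gene Gm38510. The promoter of Sp100 at its start 85650014 (chr1:85649764-85650013, plus strand) is set beside that of Gm7609 at its start 85199611 (chr1:85199361-85199610, plus strand).
Sp100: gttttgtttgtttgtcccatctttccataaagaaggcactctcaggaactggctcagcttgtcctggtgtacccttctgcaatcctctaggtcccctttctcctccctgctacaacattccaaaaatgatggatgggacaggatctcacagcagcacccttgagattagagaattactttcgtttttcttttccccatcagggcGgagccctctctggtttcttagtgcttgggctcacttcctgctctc
Gm7609: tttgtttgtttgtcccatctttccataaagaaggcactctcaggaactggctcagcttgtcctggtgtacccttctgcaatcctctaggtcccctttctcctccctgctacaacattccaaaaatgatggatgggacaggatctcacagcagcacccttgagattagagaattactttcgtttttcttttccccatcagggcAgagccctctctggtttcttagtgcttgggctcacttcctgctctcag
The entries aligned over 298 bases with 98.3% identity and a longest exact run of 202 bases. In the bases printed the difference was G205A, with the Sp100 base first and positions counted from 1 at the first base printed for Sp100. Sp110, on the minus strand, has 2 starts in the table. The promoter of the start at 85598810 (chr1:85598811-85599060) is shown as a member promoter with no such partner. It shared 20 or more words of 16 bases with no other of the 32851 entries. Only promoter entries were searched, not the rest of the genes.
Sp110: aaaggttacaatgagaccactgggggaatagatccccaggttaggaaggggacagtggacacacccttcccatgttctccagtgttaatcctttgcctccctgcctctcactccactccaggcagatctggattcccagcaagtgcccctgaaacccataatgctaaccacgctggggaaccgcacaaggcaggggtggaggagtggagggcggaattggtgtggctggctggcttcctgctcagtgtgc
The other Sp110 start, at 85603891, shared that many words with 27 entries on 11 chromosomes, over which it was 75.4% to 95.3% identical.

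Summits are the bases of highest read pile-up in each called peak, and the authors called them in each library separately. Each has a score, taken here to be a significance on the −log10 scale, which no label states. Scores rank summits within a list and show no change between lists. Values given in threes below stand in the order p53 replicate 1, replicate 2, PPAR-alpha. The lists held 3608, 4767 and 4070 summits, and their median scores were 3.99, 3.62 and 4.70. The depth of the libraries is unknown. Of 15 thymocyte marker genes, 12, 14 and 13 had a summit within 5 kb of a gene end in these lists, and 11 had one in all 3, where the share over all protein-coding genes was 13.0%, 16.5% and 12.4%. Such summits lay near 1 of 7 B cell markers and 1 of 5 myeloid markers in each list, and near 0, 1 and 0 of 6 markers of thymic epithelium, and these counts are near that share.

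All summits inside the 3 genes lay in Sp140, and Sp100 held none. Inside Sp140 (85587491 to 85645040) lay 4 summits of p53 replicate 1, 3 of p53 replicate 2 and 5 of PPAR-alpha. Sp110 (85570735 to 85610850) overlaps the first part of Sp140 and shares 2 summits with it in each list. It had no summit of its own outside that overlap. Sp100 (85649948 to 85709998) had 0 in each of the 3 lists. A summit inside the gene was present for 2 of the 3 members, where the share over all protein-coding genes was 9.53%, 11.7% and 9.41% in the 3 lists. With 100 kb either side added, all 3 members had a summit in every list, as did 41.2%, 47.9% and 41.3% of protein-coding genes. Since these lists led to the choice of the genes, nothing is read from that comparison. As many summits as in Sp140, or more, were inside 52, 153 and 26 protein-coding genes, which is 0.239%, 0.703% and 0.119% of them. These numbers make no allowance for gene length, which is 57550 bp for Sp140, and nothing is read from them either.

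The highest score of the 3 genes lay in their overlap, upstream of the printed Sp140 start, in every list. In p53 replicate 1 the summit was at 85592064 with a score of 38.4, rank 46 in its list. In p53 replicate 2 it was at 85591314 with 41.1, rank 45. In PPAR-alpha it was at 85591443 with 83.0, rank 45. The 3 ranks were nearly equal, while the positions were not the same base. Replicate 2 and PPAR-alpha were 129 bp apart, replicate 1 lay 621 bp from PPAR-alpha, and the p53 replicates were 750 bp apart. At the limit of 100 bp used to call a position shared, all 3 were therefore separate. Counted along Sp140 they lay 8639, 9389 and 9260 bp before its printed start. They were inside the annotated gene, 4573, 3823 and 3952 bp from its upstream boundary.

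**Figure D1:**
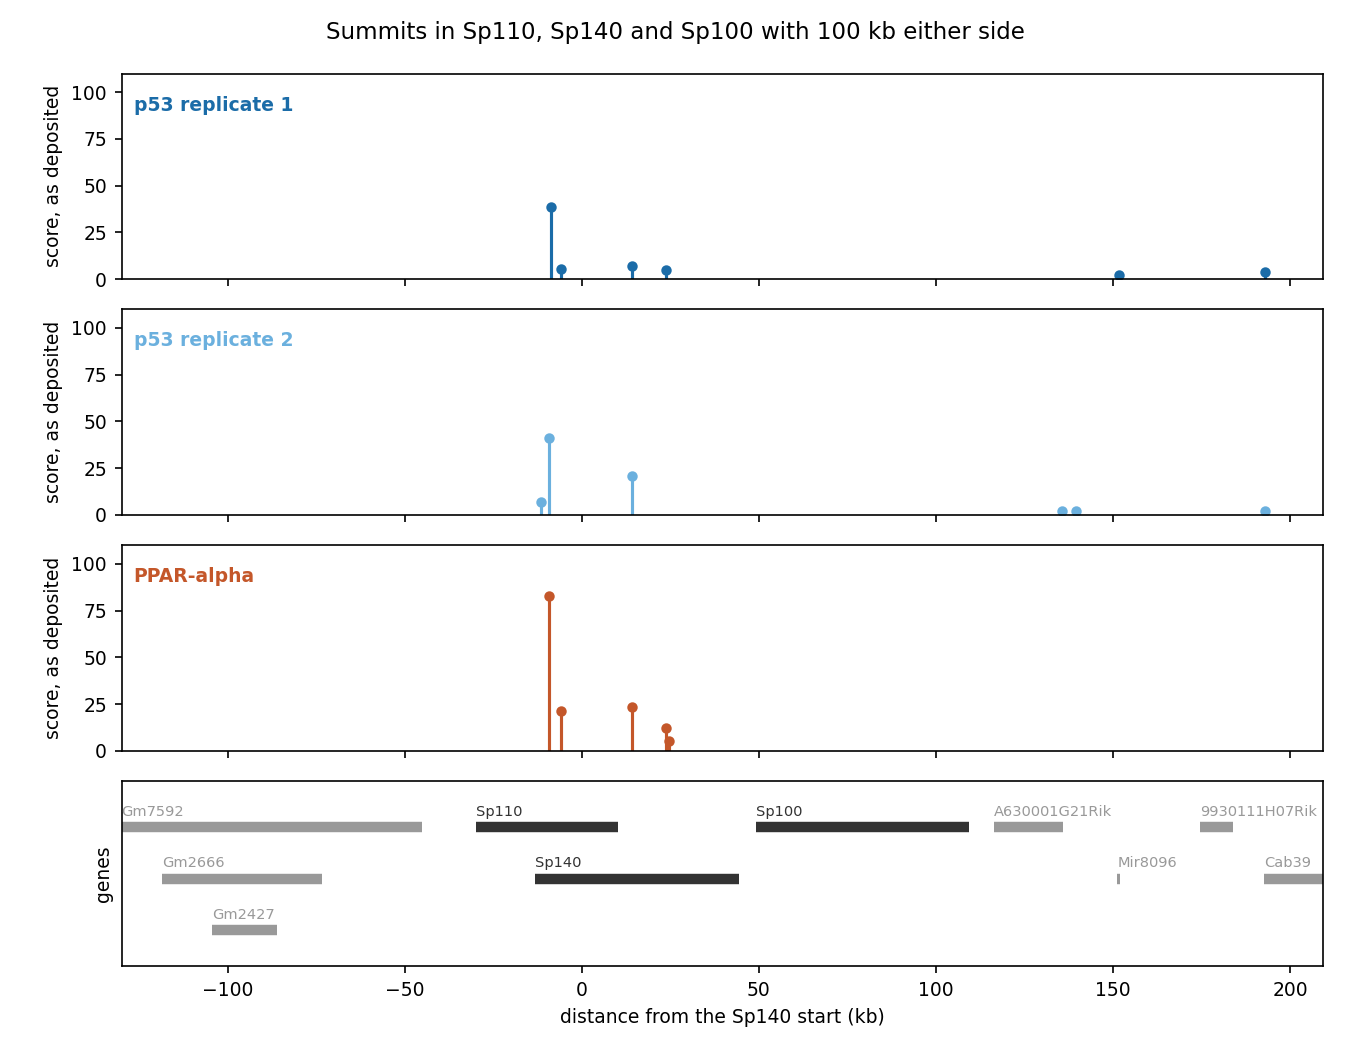
Deposited score of each summit (vertical axis) against distance from the printed Sp140 start in kb (horizontal axis), 1 panel for each list, with annotated genes below and the 3 members in dark grey. The PPAR-alpha summits sit in the overlap of Sp110 and Sp140 and further along Sp140. The p53 replicates have summits there too, and low-scoring ones downstream of Sp100. No list has a summit over Sp100.

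Further into Sp140, 1 position was found in all 3 lists. It lay outside Sp110 and upstream of it, since that gene is on the minus strand. The distances to the upstream boundary of Sp110 were 3960, 3900 and 3918 bp in the 3 lists. This position was at 85614810 in p53 replicate 1 (score 7.07), 85614750 in p53 replicate 2 (20.7) and 85614768 in PPAR-alpha (23.4), a span of 60 bp. It lay 14047 to 14107 bp behind the printed Sp140 start. A pair of positions was shared by p53 replicate 1 and PPAR-alpha and absent from replicate 2. The first was 85594850 with 5.45 in replicate 1 and 85594866 with 21.5 in PPAR-alpha, 16 bp apart. The second was 85624563 with 4.70 and 85624576 with 12.3, 13 bp apart. The remaining summits inside Sp140 were in 1 list each, at 85589231 in replicate 2 (6.72) and 85625465 in PPAR-alpha (5.30).

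No summit of any list fell in the promoter entries of Sp100, Sp110 or Sp140. The nearest to the printed Sp140 start were 5853, 9389 and 5837 bp away in the 3 lists. From the upstream boundary of the annotated Sp140 gene, at 85587491, the nearest were 4573, 1740 and 3952 bp away. From the Sp110 start at 85598810 they were 3960, 7496 and 3944 bp away. From the Sp100 start at 85650014 the nearest were 25451, 35264 and 24549 bp away, all inside Sp140. In the printed bases of the 3 members and their 3 partners, 4 motifs were searched on both strands. These were a pair of GAAA spaced by 2 bases, the core of interferon response elements, AGGTCA, the half-site of nuclear receptors, a pair of AGGTCA spaced by 1 base, the element of PPAR, which holds the half-site, and the p53 half-site consensus. They occur in 2.98%, 14.0%, 0.0335% and 7.13% of the 32851 promoters of this length. None occurred in the printed bases, which says only that these letters are not in these windows.

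The rest of the window, from 85470735 to 85809998 with 100 kb either side of the members, held only low scores. It contained 10 annotated genes, 5 of them with predicted or unnamed symbols. Upstream, Gm7592, Gm2666 and Gm2427 held no summit in any list. Downstream, replicate 2 had 85736217 inside A630001G21Rik and 85740140, 3484 bp past it, with 2.37 each, and replicate 1 had 85752448, 374 bp from the microRNA gene Mir8096, with 2.18. At Cab39, which encodes an adaptor of the kinase LKB1, replicate 1 had 85793695 (3.99) and replicate 2 had 85793490 (2.37), 254 and 49 bp into the gene. PPAR-alpha had no summit downstream of Sp140. All 5 of its summits in the window were inside Sp140.

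In all, the window held 6, 6 and 5 summits of the 3 lists, at 13 positions. Of these, 10 positions were in 1 list, 2 in 2 lists and 1 in all 3. Leaving out p53 replicate 2 raised the positions found in every remaining list to 3, and leaving out replicate 1 gave 1. Among p53 replicate 1 summits of the window, 1 of 6 had a replicate 2 summit and 3 of 6 a PPAR-alpha summit within 100 bp, where the whole list had 20.8% and 17.4%. Of the 5 PPAR-alpha summits, 3 met replicate 1 and 1 met replicate 2, where the whole list had 15.4% and 18.3%. The window held 0.166% of the summits of p53 replicate 1 (exact Clopper-Pearson 95% interval 0.0611 to 0.362%, counting error only). In p53 replicate 2 the share was 0.126% (0.0462 to 0.274%) and in PPAR-alpha 0.123% (0.0399 to 0.286%). Neighbouring summits of PPAR-alpha were between 889 and 19902 bp apart. In p53 replicates 1 and 2 the spacing ran from 2786 to 127885 bp and from 2083 to 121467 bp.

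Windows of the same length laid end to end on the autosomes numbered 7075. As many summits as at the Sp100 family, or more, were in 1.14%, 1.77% and 2.36% of them. In each of the 3 lists at once this held for 38 windows, or 0.537%. Most windows were empty, with 74.4%, 70.4% and 73.5% holding no summit. The fullest window of each list held 48, 59 and 33. The window was chosen for its summits, so these shares place it among windows and support nothing.

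**Figure D2:**
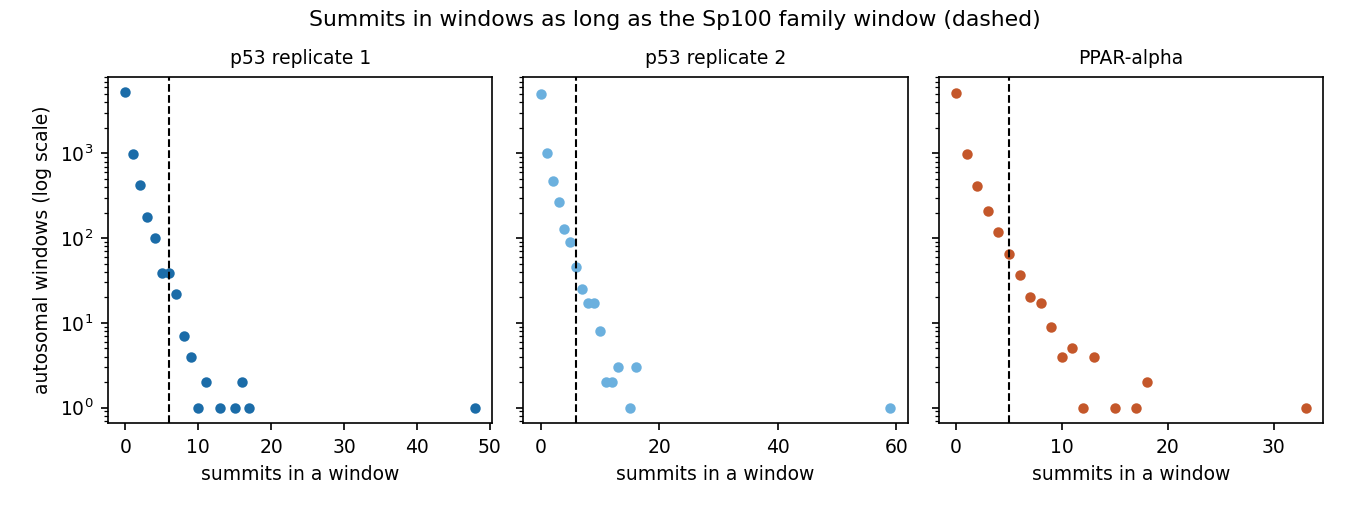
Number of autosomal windows (vertical axis, log scale) by how many summits they held (horizontal axis), 1 panel for each list, with a dashed line at the 6, 6 and 5 summits of the Sp100 family window. Each list has windows with far more, up to 48, 59 and 33.

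Upstream of the window the run held 4, 6 and 11 summits in the 3 lists, beside 4, 3 and 5 inside the 3 members. The whole run between Slc16a14 and Cab39, from 84935282 to 85793440, has 24 annotated genes, 19 of them predicted or unnamed and 9 of them pseudogenes, not counting 1 transcribed pseudogene. It held 9, 11 and 16 summits of the 3 lists. This wider run was added after the values were seen. C130026I21Rik alone, whose promoter is nearly that of Sp140, held 4, 5 and 8, all of which also lie inside the longer Gm38510. A530032D15Rik, the other partner, held 1 PPAR-alpha summit at 85090759 (19.8), and 2 more lay 3130 and 1452 bp beyond its end, at 85085009 (9.27) and 85086687 (8.57). It had no p53 summit. Gm2619, a transcribed pseudogene, had 85323401 in p53 replicate 2 (5.08).

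C130026I21Rik had the highest PPAR-alpha score of the run. The summit was at 85277804 in p53 replicate 1 (29.9), 85277796 in p53 replicate 2 (33.6) and 85277791 in PPAR-alpha (99.5, rank 39), a span of 13 bp, against 750 bp for the strongest summits of Sp140. Another position in all 3 lists was 85274050, 85274063 and 85274037, with 17.6, 13.3 and 19.8. At 85263957 in replicate 2 (26.4) and 85263955 in PPAR-alpha (45.5) the lists were 2 bp apart, and replicate 1 had none there. PPAR-alpha also had 85270097 (22.4), 469 bp behind the C130026I21Rik start, the nearest summit to any of the starts with the Sp140-type promoter. The others of this gene scored from 3.34, in replicate 1, to 11.5, in PPAR-alpha.

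**Figure D3:**
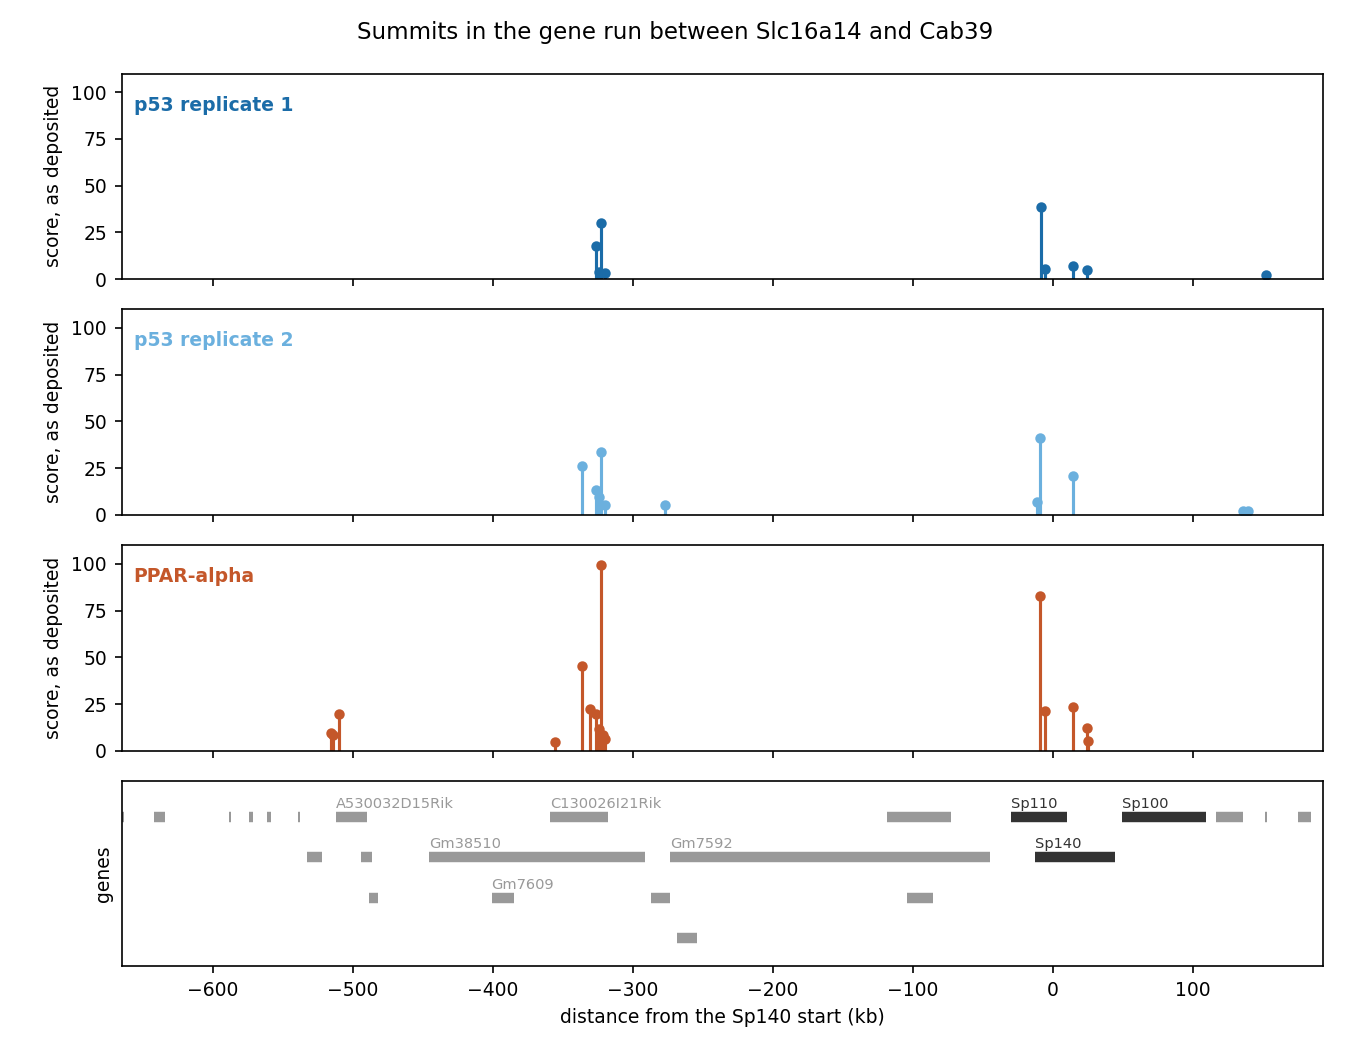
Deposited score of each summit (vertical axis) against distance from the printed Sp140 start in kb (horizontal axis) for the gene run, 1 panel for each list, with genes below and the 3 members in dark grey. Summits of all 3 lists gather at C130026I21Rik and at Sp140, and a group of 3 at A530032D15Rik is in PPAR-alpha alone.

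When the 3 starts with the shared promoter were laid on the same base, 2 of the 12 Sp140 summits had a summit of the same list within 100 bp at another of these starts. In p53 replicate 1 it lay 5853 bp before that base at Sp140 (score 5.45) and 5805 bp before it at C130026I21Rik (3.99). In PPAR-alpha it lay 24762 bp behind it at Sp140 (5.30) and 24815 bp behind it at A530032D15Rik (9.27). The other 10 had none. The strongest PPAR-alpha summit lay 9260 bp before that base at Sp140 and 7263 bp before it at C130026I21Rik. Between it and the start, Sp140 had 1 PPAR-alpha summit, 5837 bp before that base with 21.5. C130026I21Rik had 2 there, 6034 bp before it with 11.5 and 3509 bp before it with 19.8. Behind the start, Sp140 had PPAR-alpha summits at 14065, 23873 and 24762 bp. C130026I21Rik had them at 431, 6573 and 25395 bp, and A530032D15Rik at 19065, 23137 and 24815 bp. At Gm7609, the partner of Sp100, the nearest summits were 74439, 64346 and 45522 bp from the start in the 3 lists. The nearest PPAR-alpha summit was thus 24549 and 45522 bp from the starts of Sp100 and Gm7609, and 5837, 469 and 19094 bp from those of Sp140, C130026I21Rik and A530032D15Rik. No genome sequence was used here, so whether the summit positions themselves lie in shared sequence was not tested.

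**Figure D4:**
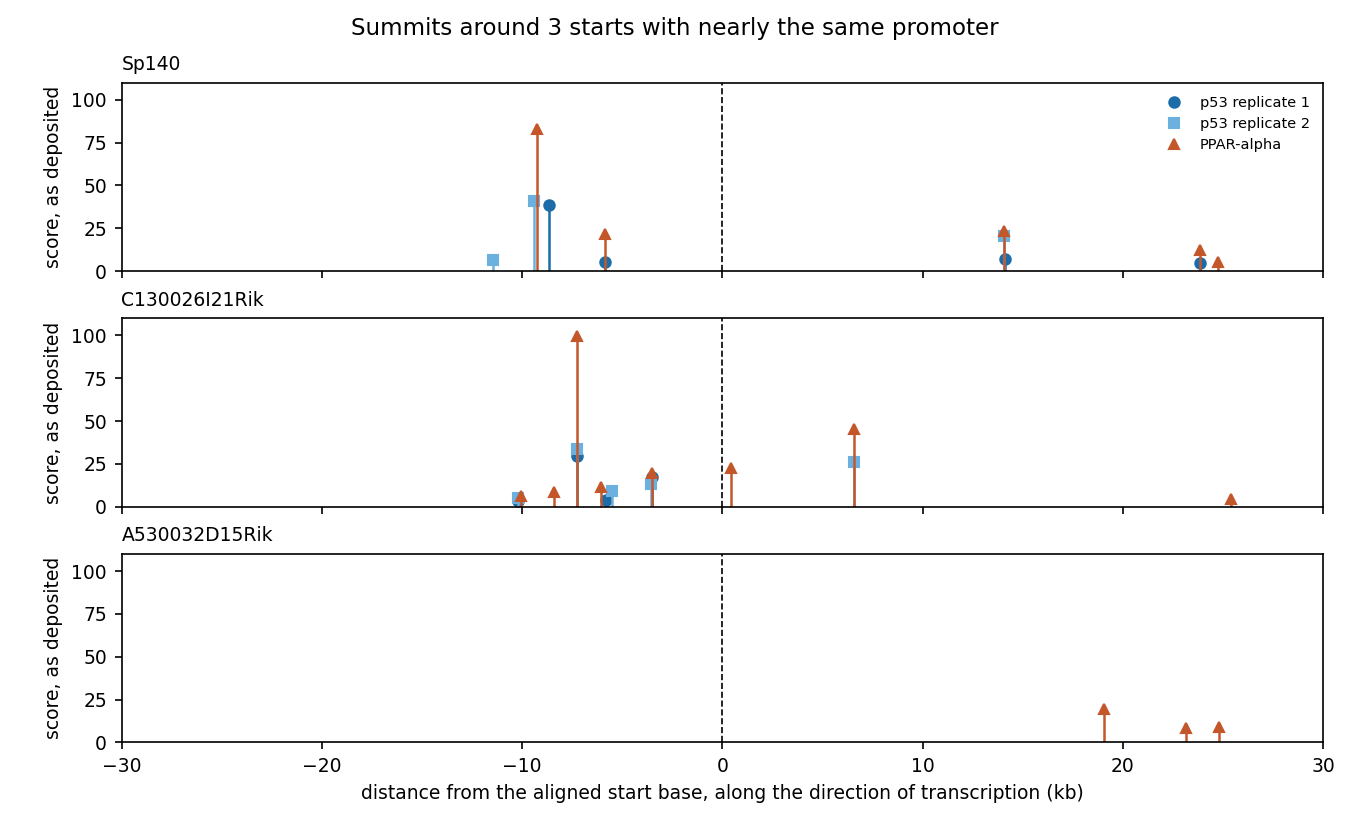
Deposited score (vertical axis) against distance in kb from the base aligned with the printed Sp140 start, along the direction of transcription (horizontal axis), for Sp140, C130026I21Rik and A530032D15Rik, with circles, squares and triangles for p53 replicate 1, p53 replicate 2 and PPAR-alpha. Sp140 and C130026I21Rik have their highest summits 7 to 10 kb before the start, and A530032D15Rik has 3, all PPAR-alpha and behind it.

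Values that bear on copy number are few. The gene table gives Csprs, with the older names HSR and D1Lub1, at 111558 to 163011 under chromosome 1. It is 1 of 48 genes under chromosome 1 with starts below 3000000, 21 of them protein-coding, which lie on sequences outside the assembled chromosome. The 3 lists name only the 21 placed chromosomes, and their first summits on chromosome 1 are at 6214759, 4785548 and 6214746. The scores of 38.4, 41.1 and 83.0 at Sp140 were at ranks 46, 45 and 45. They were far below the highest scores of the lists, which were 7038, 7057 and 9205. In the 3 lists 40, 41 and 67 summits scored 50 or more. The part in the Sp140 scores of array copies that the reference lacks was not tested.

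Summits at genes of PML nuclear bodies, other interferon-inducible arrays and interferon signalling had scores both below and above the median of their list. Of 11 genes of PML nuclear bodies, Sp100 included, 6, 2 and 4 had a summit within 5 kb of a gene end in the 3 lists, where the share over all protein-coding genes was 13.0%, 16.5% and 12.4%. Rnf4, a ubiquitin ligase for SUMO-tagged PML, had 3.99, 2.37 and 3.58 in the 3 lists. Daxx had 1.68 in p53 replicate 1 and 12.3 in PPAR-alpha. Of 32 matched genes of other interferon-inducible arrays (35 listed), 2, 5 and 6 had such a summit. Gbp2, a guanylate-binding protein gene had 13.6, 4.33 and 6.55 as its highest scores. Gbp5 had 15.6 and 6.72 in the p53 replicates. Of 16 interferon signalling genes, 6, 5 and 5 had one, and Ifngr1, a chain of the interferon gamma receptor, had 7.07, 7.58 and 6.55.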

How the data were processed

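ChIP-seq summits of 3 libraries from p53 AD/AD thymus were used. The submitters' processing notes name the aligner Bowtie2 in version 2.3.4.2, the read toolkit Picard in version 2.9.0 and the peak caller MACS2 in version 2.1.2, with no roles or settings. The deposited score of each summit was taken to be the −log10 of a p-value or q-value, from the form and values of the lists, since no label states it, and was used unchanged. The sources used here do not give the calling threshold, the control or the handling of reads that map to several places. The notes name GRCh38 for mouse tissue. On chromosome 1, 43.8%, 42.6% and 33.8% of the summits lay within 1 kb of a GRCm38.p6 gene end, against 3.46% to 8.24% after moving them by 10 kb either way, and GRCm38 was used. Positions are counted from 1.

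The members, lists and windows were chosen with earlier results of these data known. Protein-coding genes on placed sequence (starts from 3000000 on, except Y) and windows laid end to end from that base served as background. Summits of different lists within 100 bp were 1 position, joined in a chain. Promoters were aligned with Biopython 1.88, locally, and other steps used pandas 2.3.3 and SciPy 1.17.1. Counting and grouping were tested on simulated data. Named genes were the members, the window's genes, 5 genes with summit numbers most like those of Sp140, and members of the pathway lists with a summit within 5 kb. Genes of the wider run were named after their values were seen. A gene of one list is not reported here by name.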

Additional observations from a re-analysis of the deposited data

How the results depend on the processing

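With only scores of 5 or more the window held 3 summits in each p53 replicate. With 10 or more it held 1 in replicate 1 and 2 in replicate 2, and its share of such summits was 0.515%, 0.976% and 0.614% in the p53 replicates and PPAR-alpha. Without any flank, p53 replicate 2 kept 3 summits. Flanks of 50 or 200 kb left 5 or 6 in each list. The gene run between Slc16a14 and Cab39 held 11 summits of replicate 2 and 16 of PPAR-alpha. The number of positions found in every list was 1 within 50, 100 or 500 bp and 2 within 1000 bp, and between 1 and 3 when either p53 replicate was left out. The run and the 1000 bp limit were chosen after seeing the data. Leaving out summits of 50 or more moved no share beyond its interval. No paired analysis was made, and no result comes from a test. Unknown depth limits all counts: a position missing from a list may lie below its threshold.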

Other observations

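Many genes had the same numbers of summits as Sp140 within the gene and 100 kb either side, which were 4, 5 and 5 in the p53 replicates and PPAR-alpha. Outside 1 Mb of the members, 24 protein-coding genes had a Euclidean distance of 0 to Sp140 over these 3 numbers. The first 5 in genome order, Sv2a, Bola1, H2ac21, H2ac20 and H2bc21, lie together on chromosome 3 and share their summits. The measure uses numbers only and takes no account of scores or positions.

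Irf8 had a summit in both p53 replicates, with 2.74 and 5.88, and none in PPAR-alpha. Ifngr2 and Irf1 had one in p53 replicate 1 and PPAR-alpha, with 2.18 and 7.20 at Ifngr2 and 3.34 and 5.91 at Irf1. Among the Schlafen genes, Slfn5 (5.30), Slfn9 (3.06) and Slfn8 (2.57) had a summit in PPAR-alpha alone, and Slfn2 (4.33), Slfn3 and Slfn4 in p53 replicate 2 alone, the last of these sharing with Slfn3 a summit of 1.34.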
